A study of Danio rerio with 6 samples.

Results

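Each miR-181 hairpin of zebrafish yields a 5p and a 3p strand, and the 3p strands, or partner strands, are the rarer ones in these cells. Several hairpins share 1 main strand row in the table, whereas a partner strand row carries the name of a single hairpin or of a few. The rows whose name holds miR-181a, miR-181b or miR-181c and ends in 3p were taken, which gave 8 of the 414 miRNAs in the table: dre-miR-181a-3p, dre-miR-181a-2-3p, dre-miR-181a-3-3p, dre-miR-181a-4-3p, dre-miR-181a-5-3p, dre-miR-181b-3p, dre-miR-181b-3-3p and dre-miR-181c-3p. Another 5 rows of the family were the 4 main strands dre-miR-181a-5p, dre-miR-181b-5p, dre-miR-181c-5p and dre-miR-181d-5p, and dre-miR-181d-3p, which had 1 read in cold acclimation replicate 3 and no read in any other library.

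Small RNA was sequenced from ZF4, a fibroblast line made from zebrafish embryos. Cold acclimated cells were held at 18°C for 30 days (3 libraries), and control cells were cultured at 28°C (3 libraries). The series' labels call the samples of a condition biological replicates without saying whether they were separate cultures, so the p-values measure the spread between these samples. Since RNA came from whole cultures of 1 cell line, more cells with a strand and more of it per cell cannot be told apart.

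A miRNA gene is transcribed as a longer RNA that folds into a hairpin, from which Drosha and Dicer cut a short duplex. An Argonaute protein keeps 1 strand of the duplex, the main strand, which pairs with messenger RNAs, and most of the other strand is degraded. The level of a partner strand therefore depends on how much hairpin is cut and on how much of the partner strand is kept. In mammals, miR-181a-5p is known for tuning T cell receptor signalling in developing T cells. Roles of the single zebrafish partner strands are not described here.

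The family is arranged in neighbouring pairs of hairpin genes. In the RefSeq gene table of zebrafish (assembly GRCz12tu, used for names and neighbours only), 10 miR-181 hairpin genes formed 5 pairs with 0 other genes in between. The pairs were mir181a-1 with mir181b-3, mir181a-2 with mir181b-2, mir181a-3 with mir181c, mir181a-4 with mir181d, and mir181a-5 with mir181b-1. By elimination, dre-miR-181a-3p, which has no copy number in its name, is the partner strand of mir181a-1. dre-miR-181b-3p may report mir181b-1, mir181b-2 or both, which the sources used here did not settle. The counting of a read that matches more than 1 miRNA was not stated in the sources used, so similar strands of different hairpins may share reads.

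The libraries held 12075864, 11748241 and 13966282 miRNA reads in cold acclimated cells and 14960610, 13710892 and 14498780 in control cells. By the clean read numbers of the paper, these were a smaller part of the reads in every cold acclimation library than in any control library. The deposited values are named TPM and give the reads of a miRNA per 1000000 miRNA reads of its library, with no length term, so that 1 read was worth 0.0668 to 0.0851 TPM. A list of 6 fibroblast and mesenchymal miRNAs summed to 388200 to 428000 TPM in the cold acclimation libraries and 403100 to 407800 TPM in the control libraries. Nearly all of it was dre-miR-21, so the sum cannot serve as a check of the cell type. The other 5 had lower means in cold acclimated cells. Of these, dre-miR-199-3p fell, with 2307 ± 186 TPM in cold acclimated cells and 4968 ± 1705 TPM in control cells (SD, n = 3 each, limma adjusted p = 0.00631), dre-miR-214 had an adjusted p of 0.0122, and for the rest it was 0.102 to 0.890. Their part in the results below was not tested. Short lists of marker miRNAs of neurons (2), muscle (3), liver (1), blood (4) and epithelium (3) each summed to between 1.45 and 12.1 TPM in every library. Of the listed miRNAs only dre-miR-1 was at 0 throughout cold acclimated cells. The low sums hold for the listed miRNAs only. Outside the lists, means in cold acclimated and control cells were 4.65 and 8.09 TPM for dre-miR-200a-3p and 25.5 and 33.7 TPM for dre-miR-200c-3p. For dre-miR-141-3p they were 74.5 and 88.1 TPM, and for dre-miR-153c-3p 300 and 269 TPM. Control replicate 3 stood apart, with 374 TPM of dre-miR-143, the lowest of the 6 libraries. Values without it are given for some of the strands and ratios below.

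The 8 partner strands spanned a wide range of levels, led by the hairpin mir181a-2. dre-miR-181a-2-3p alone ranked 27 of 414 by mean TPM, and at the other end dre-miR-181a-4-3p rested on 23 reads in the 3 cold acclimation libraries together and 10 in the 3 control libraries. Listed by their mean over all libraries, the order was dre-miR-181a-2-3p, dre-miR-181a-5-3p, dre-miR-181b-3p, dre-miR-181a-3p, dre-miR-181a-3-3p, dre-miR-181c-3p, dre-miR-181b-3-3p and dre-miR-181a-4-3p. Each neighbouring pair in this order kept its order in 6 of 6 libraries and did not overlap within either condition, except dre-miR-181b-3p and dre-miR-181a-3p. That pair kept its order in 5 of 6 libraries and overlapped in cold acclimated cells, where dre-miR-181b-3p was 1.04-fold the level of dre-miR-181a-3p, against 1.47-fold in control cells. The lead of dre-miR-181a-2-3p over dre-miR-181a-5-3p, the next in order, was 10.7-fold in cold acclimated cells and 5.22-fold in control cells.

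**Figure D1:**
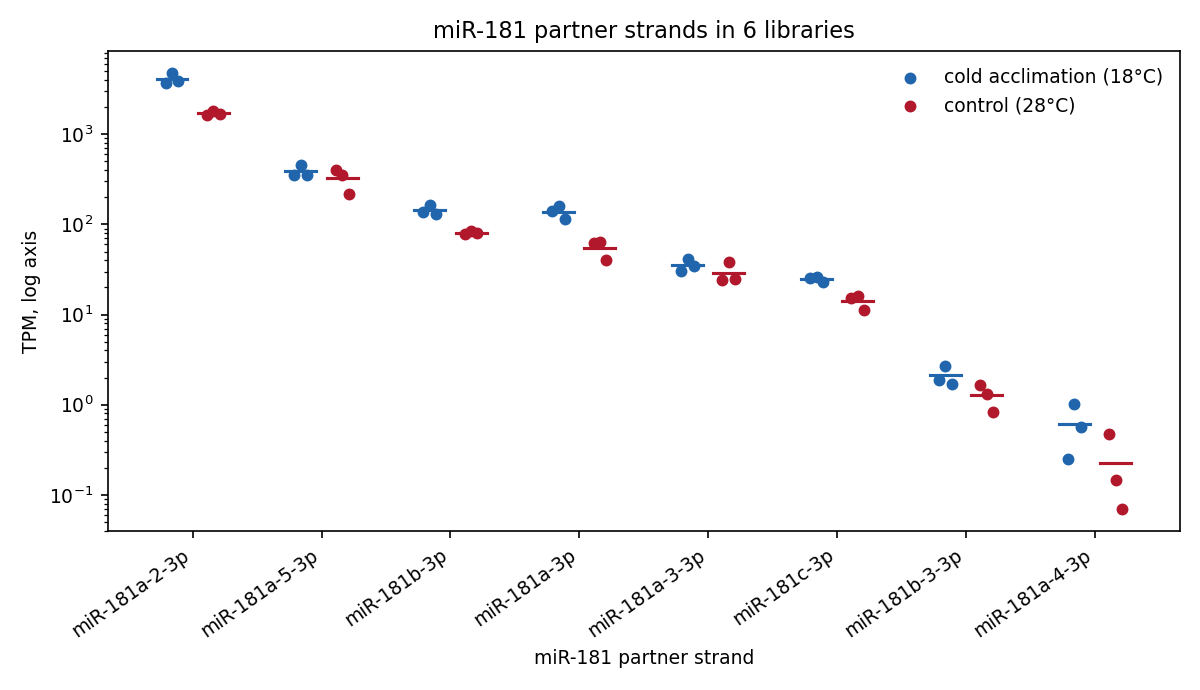
Level of the 8 miR-181 partner strands in each library, in TPM on a log axis, with cold acclimated cells left of control cells. Points are libraries (3 per condition) and lines mark means, from 4156 TPM for dre-miR-181a-2-3p in cold acclimated cells down to 0.228 TPM for dre-miR-181a-4-3p in control cells.

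Cold acclimated cells held more of the partner strands of mir181a-2 and mir181a-1 and of dre-miR-181b-3p than control cells, while the strands of mir181a-5 and mir181a-3 showed no difference that passed the test. The comparison asks whether a partner strand changes during cold acclimation. The values, as log2(TPM + 1), were fitted with limma over the 310 miRNAs with a mean above 1.5 TPM (about 20 reads), with Benjamini-Hochberg adjustment over all of them. Here a miRNA rose or fell where the adjusted p was under 0.01, and a DE-miRNA also changed by more than 2.5-fold. 7 of the 8 partner strands passed the filter on the mean, and dre-miR-181a-4-3p did not.

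dre-miR-181a-2-3p had 3751, 4841 and 3875 TPM in cold acclimation replicates 1, 2 and 3, against 1642, 1805 and 1679 TPM in control replicates 1, 2 and 3. The lowest cold acclimation library lay far above the highest control library. The means were 4156 ± 597 TPM in cold acclimated cells and 1709 ± 85.7 TPM in control cells (SD, n = 3 each), a ratio of 2.43. The log2 fold change was 1.27 (SE 0.14, limma adjusted p = 0.000103), which ranked 26 of 310 and fell just short of the 2.5-fold threshold of a DE-miRNA (1.32 on the log2 scale). Under every alternative run this strand rose, with adjusted p between 2.13e-06 and 0.0013. Without cold acclimation replicate 1 its log2 fold change was 1.34, above the fold threshold.

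dre-miR-181a-3p, the partner strand of mir181a-1, had 142, 160 and 114 TPM in cold acclimated cells, against 61.6, 63.1 and 40.3 TPM in control cells. The conditions did not overlap, and the replicate numbered 3 was the lowest within each. With means of 139 ± 23.2 TPM in cold acclimated cells and 55.0 ± 12.7 TPM in control cells (SD, n = 3 each), the log2 fold change was 1.33 (SE 0.23, limma adjusted p = 0.00151), which made it the DE-miRNA of the group. Its adjusted p lay just above 0.01 without cold acclimation replicate 1 (0.0107) or replicate 2 (0.0101), and without control replicate 3 the log2 fold change was 1.13, under the fold threshold.

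dre-miR-181b-3p had 138, 164 and 130 TPM in cold acclimated cells, against 77.4, 84.3 and 81.4 TPM in control cells. The control libraries lay close together and all below the cold acclimation libraries. The log2 fold change was 0.81 (SE 0.18, limma adjusted p = 0.00465), with 144 ± 17.9 TPM in cold acclimated cells and 81.0 ± 3.47 TPM in control cells (SD, n = 3 each). The adjusted p was above 0.01 on leaving out replicate 1 (0.0205) or 2 (0.0153) of the controls or replicate 1 (0.0232) or 2 (0.0203) of cold acclimation, and also per 1000000 clean reads (0.0201) and when library totals excluded dre-let-7a and dre-miR-100-5p (0.0107).

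The partner strand of mir181c was close to the threshold. dre-miR-181c-3p had 25.3, 26.0 and 23.1 TPM in cold acclimated cells, against 15.1, 15.9 and 11.1 TPM in control cells. Its conditions did not overlap, yet the log2 fold change of 0.79 (SE 0.21) had an adjusted p of 0.0111 from limma and was not called. Without control replicate 3 the log2 fold change was 0.64 (limma adjusted p = 0.0185).

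For mir181a-5, the hairpin with the second most abundant partner strand, the libraries of the conditions overlapped. dre-miR-181a-5-3p had 357, 457 and 352 TPM in cold acclimated cells, against 406, 357 and 219 TPM in control cells. Control replicate 3 was the low one, and the other control libraries fell within the range of cold acclimated cells. The log2 fold change was 0.28 (SE 0.24, limma adjusted p = 0.354), and without control replicate 3 it was 0.018. Per 1000000 clean reads it was -0.018.

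The conditions overlapped for mir181a-3 as well, whose partner strand had 30.6, 41.5 and 34.7 TPM in cold acclimated cells, against 24.2, 38.4 and 24.9 TPM in control cells. The highest control library lay above the lower cold acclimation libraries. dre-miR-181a-3-3p had a log2 fold change of 0.30 (SE 0.24, limma adjusted p = 0.317).

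The remaining pair rested on few reads. dre-miR-181b-3-3p, from the neighbour of mir181a-1, had 23, 32 and 24 reads in cold acclimated cells, or 1.90, 2.72 and 1.72 TPM, against 25, 18 and 12 reads in control cells, or 1.67, 1.31 and 0.828 TPM. The conditions came within a fraction of a read's worth of each other, and the log2 fold change was 0.46 (SE 0.23, limma adjusted p = 0.119). dre-miR-181a-4-3p had 3, 12 and 8 reads in cold acclimated cells and 7, 2 and 1 reads in control cells, which overlapped. Summed over libraries, its level was 0.609 per 1000000 miRNA reads in cold acclimated cells (95% exact Poisson interval 0.386 to 0.913) and 0.232 in control cells (0.111 to 0.426). These intervals cover counting error only, and the overlap of the single libraries was wider than they show.

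**Figure D2:**
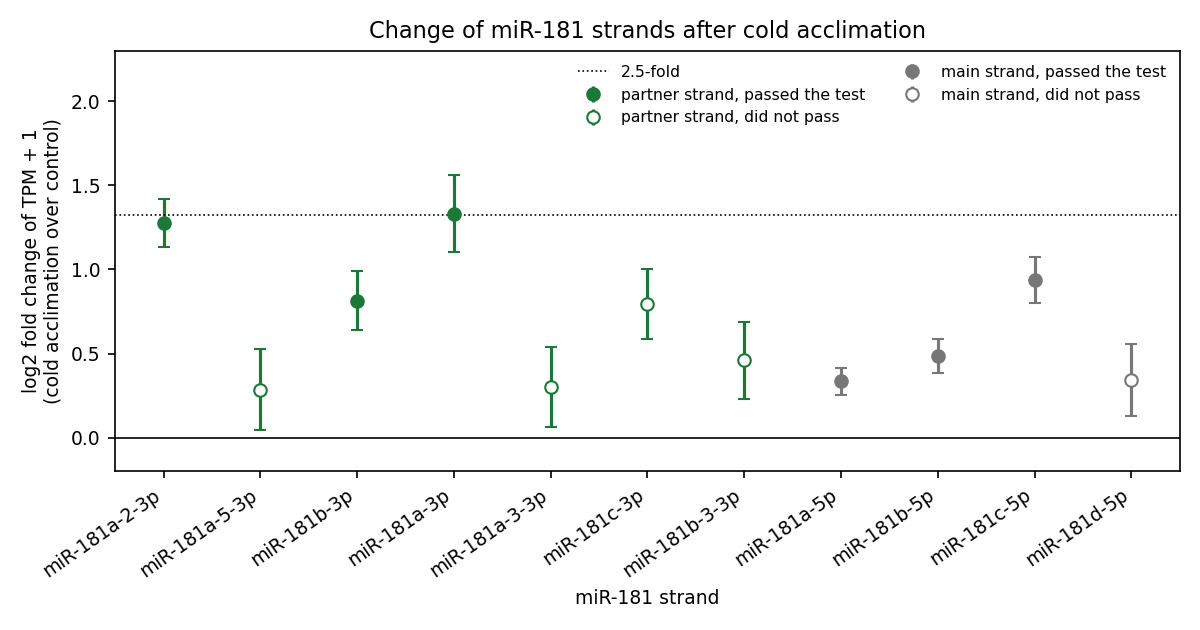
log2 fold change of TPM + 1, cold acclimated over control cells, of the 7 tested partner strands and the 4 main strands, with bars of 1 SE from limma (n = 3 libraries each). With the values as deposited, the partner strands run from 0.28 for dre-miR-181a-5-3p to 1.33 for dre-miR-181a-3p, all above 0. Filled points had a limma adjusted p under 0.01, open points did not, and the dotted line marks 2.5-fold.

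Counted together, 3 of the 7 tested partner strands rose and 0 fell, against 16.5% and 14.5% of all 310 tested miRNAs. 1 of the 7 was a DE-miRNA that rose and 0 one that fell, against 7.42% and 4.19%. In 5 of the 7, every cold acclimation library lay above every control library, against 29.7% of all tested miRNAs, and in 0 every one lay below, against 28.4%. All 7 had a log2 fold change above 0, against 51.9% of all, and their median was 0.79, against 0.019 over all. The 7 strands are not independent, since neighbouring hairpins may be transcribed together and similar strands may share reads. Without cold acclimation replicate 1 or 2, only dre-miR-181a-2-3p rose, with 7.74% and 7.79% of all tested miRNAs rising in these fits.

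Other strands of the same kind also lay more often above 0 than below. Of 26 other known strands whose name holds a copy number, 13 were tested, of which 2 rose, 2 fell and 10 had a log2 fold change above 0, with a median of 0.32. Of 66 tested partner strands from other strand pairs, 8 rose, 8 fell and 45 had a log2 fold change above 0, with a median of 0.25. Over all 310 tested miRNAs, 16.5% rose, 14.5% fell and 51.9% had a log2 fold change above 0. DE-miRNAs were 2 higher and 0 lower of the 13, and 4 higher and 2 lower of the 66, against 7.42% and 4.19% of all. Most of the 13 were also among the 66, such as the DE-miRNA dre-miR-100-2-3p, so the lists are not separate.

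Of the 4 main strands of the family, 3 rose in cold acclimated cells and 0 fell, against 16.5% and 14.5% of all tested miRNAs, but the calls of dre-miR-181a-5p and dre-miR-181b-5p depended on the scaling and on single libraries. dre-miR-181c-5p, from mir181c, had 1007 ± 29.1 TPM in cold acclimated cells and 526 ± 20.7 TPM in control cells (SD, n = 3 each), a log2 fold change of 0.94 (SE 0.14, limma adjusted p = 0.000568). dre-miR-181a-5p, shared by the miR-181a hairpins and second of the 414 miRNAs in mean TPM, had 182488 ± 8586 TPM in cold acclimated cells and 144547 ± 6503 TPM in control cells. Its log2 fold change was 0.34 (SE 0.08, limma adjusted p = 0.00701), and per 1000000 clean reads it was 0.034 (adjusted p = 0.773). dre-miR-181b-5p had 29255 ± 1928 TPM in cold acclimated cells and 20892 ± 955 TPM in control cells, and its log2 fold change of 0.48 (limma adjusted p = 0.0038) was 0.18 per 1000000 clean reads (adjusted p = 0.167). Both calls were also lost under median-of-ratios scaling (adjusted p = 0.130 for dre-miR-181a-5p and 0.0133 for dre-miR-181b-5p from limma), when totals excluded dre-let-7a and dre-miR-100-5p (0.0708 and 0.0188), and without any 1 of replicates 1 and 2 of either condition. That of dre-miR-181a-5p was lost with no filter on low values too (0.0171). dre-miR-181d-5p, with 2.29 ± 0.390 TPM in cold acclimated cells and 1.60 ± 0.403 TPM in control cells, had a log2 fold change of 0.34 (limma adjusted p = 0.205).

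A ratio of the strands within a library holds no library size term. The reads of each partner strand per 1000 reads of its main strand were therefore compared, on the log2 scale with 1 TPM added to each strand, with limma over the 75 strand pairs of known miRNAs whose strands both had a mean above 1.5 TPM. Since the main strand rows of miR-181a and miR-181b pool several hairpins, a ratio of this kind can move with the share of a hairpin as well as with the strand kept, and these cannot be told apart. Of the 7 miR-181 pairs, 1 rose and 0 fell, against 8% and 10.7% of all 75 pairs. Some of the other pairs hold a name without an arm, such as dre-miR-212, and may not be opposite strands.

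dre-miR-181a-2-3p amounted to 19.7, 26.5 and 22.3 reads per 1000 reads of dre-miR-181a-5p in cold acclimated cells, against 11.7, 12.8 and 11.0 in control cells. All cold acclimation libraries lay above all control libraries. The log2 change was 0.94 (SE 0.16, limma adjusted p = 0.00397), and the adjusted p lay above 0.01 on leaving out replicate 1 (0.0182) or 2 (0.0120) of the controls or replicate 2 (0.0163) or 3 (0.0172) of cold acclimation.

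dre-miR-181a-3p amounted to 0.745, 0.874 and 0.656 reads per 1000 of the same main strand in cold acclimated cells, against 0.439, 0.447 and 0.265 in control cells. The conditions again did not overlap, but the log2 change of 1.00 (SE 0.23) had an adjusted p of 0.0143 from limma and was not called. Without control replicate 3 the log2 change was 0.75 (limma adjusted p = 0.0109). dre-miR-181b-3p amounted to 4.91 ± 0.345 reads per 1000 of dre-miR-181b-5p in cold acclimated cells and 3.88 ± 0.0347 in control cells, a log2 change of 0.33 (SE 0.12, limma adjusted p = 0.0790).

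The other 4 ratios had changes within their SE of 0 on the log2 scale. dre-miR-181a-5-3p amounted to 2.13 ± 0.326 reads per 1000 of dre-miR-181a-5p in cold acclimated cells and 2.29 ± 0.757 in control cells, a log2 change of -0.05 (SE 0.27). Without control replicate 3 that change was -0.36 (limma adjusted p = 0.122). dre-miR-181a-3-3p had a log2 change of -0.04 (SE 0.24). dre-miR-181c-3p had a log2 change of -0.14 (SE 0.16). dre-miR-181b-3-3p amounted to 0.0718 ± 0.0140 reads per 1000 of dre-miR-181b-5p in cold acclimated cells and 0.0613 ± 0.0226 in control cells. Its fitted log2 change was -0.02 (SE 0.20), against the direction of these means, since 1 TPM was added to a strand of 1 to 3 TPM, and with 0.1 TPM added it was 0.23, so no direction is given for it. For mir181c, the strands thus moved by similar amounts, 0.79 for the partner and 0.94 for the main strand, with 24.6 ± 0.867 partner reads per 1000 main strand reads in cold acclimated cells and 26.6 ± 4.38 in control cells. With all 6 libraries, adjusted p from limma was between 0.534 and 0.933 for the 4 ratios.

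**Figure D3:**
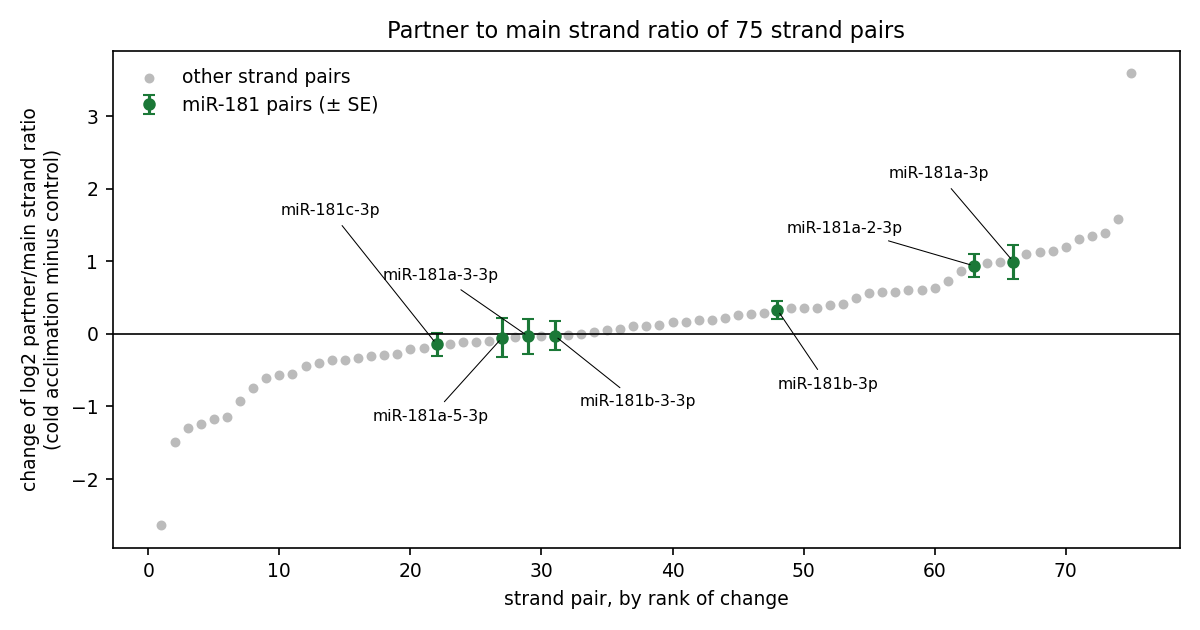
Change of the partner to main strand ratio in 75 strand pairs of known miRNAs (log2, cold acclimated minus control cells), ranked by size, with the 7 miR-181 pairs named and given bars of 1 SE. dre-miR-181a-3p (1.00) and dre-miR-181a-2-3p (0.94) lie at the upper end of the miR-181 pairs, and dre-miR-181c-3p (-0.14) at the lower end.

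The makeup of the summed partner reads of miR-181a is given as a description. A larger share came from mir181a-2 and a smaller one from mir181a-5 in every cold acclimation library than in any control library. A lack of overlap in a within-library comparison was common in these data: among 15225 ratios of 2 of the 175 miRNAs outside miR-181 with means above 10 TPM, it was found in 63.1%. Of all miR-181a 3p reads, dre-miR-181a-2-3p held 87.6%, 88.0% and 88.5% in the cold acclimation libraries, against 76.9%, 79.7% and 85.5% in the control libraries. dre-miR-181a-5-3p held 8.33%, 8.31% and 8.05% in cold acclimated cells, against 19.0%, 15.8% and 11.1% in control cells. In both cases the cold acclimation libraries were nearly alike and the control libraries varied.

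The share of dre-miR-181a-2-3p averaged 88.1% ± 0.458 in cold acclimated cells and 80.7% ± 4.39 in control cells (SD, n = 3 each), a difference of 7.33 percentage points (exact two-sided permutation test, p = 0.1, adjusted p = 0.167 over 5 shares). 0.1 is the smallest p that 3 against 3 libraries allow, so no such test here can pass 0.05. The difference lay between 5.43 and 9.73 points when a library was left out in turn. The share of dre-miR-181a-3-3p was also lower, at 0.754% ± 0.0398 in cold acclimated cells and 1.37% ± 0.293 in control cells (exact permutation p = 0.1). Its mean level was not lower, at 35.6 TPM in cold acclimated cells and 29.2 TPM in control cells. For dre-miR-181a-3p the shares overlapped, at 2.94% ± 0.362 in cold acclimated cells and 2.58% ± 0.454 in control cells (exact permutation p = 0.4). Each library held 28460 to 64623 miR-181a 3p reads, and the 95% Wilson interval of a share was at most 0.462 points to either side, which covers counting error only.

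**Figure D4:**
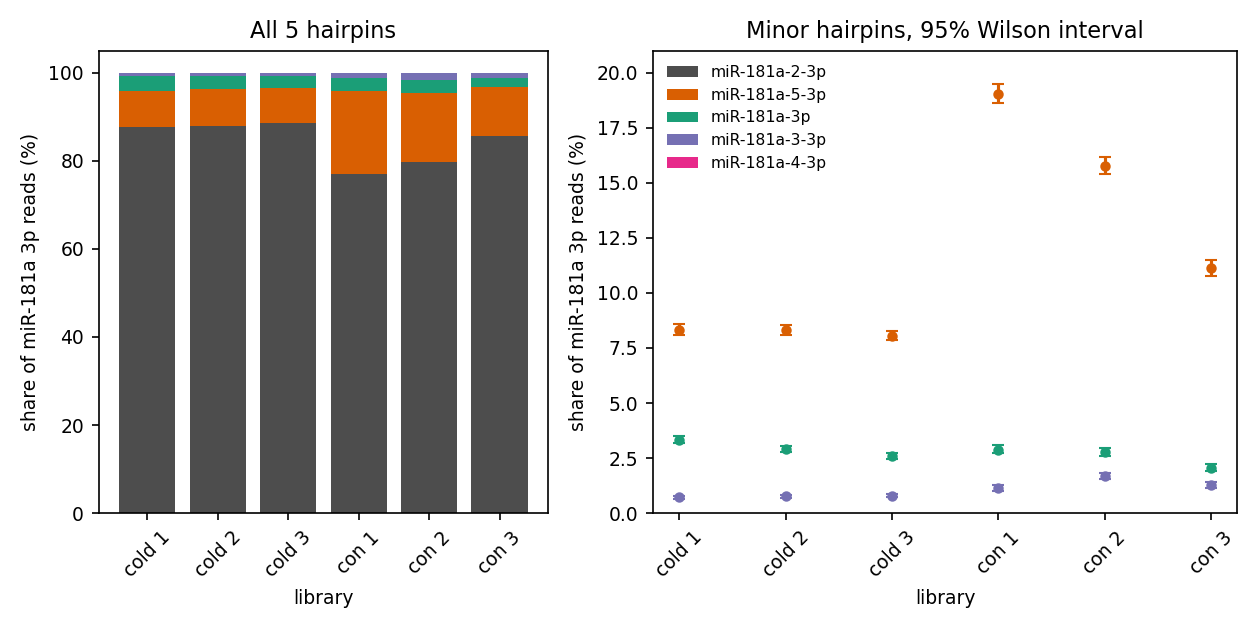
Share of each hairpin in the summed miR-181a 3p reads of a library, in percent, with cold acclimated cells left of control cells. The share of dre-miR-181a-2-3p was 87.6% to 88.5% in the 3 cold acclimation libraries and 76.9% to 85.5% in the 3 control libraries.

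In TPM, the sum of the 5 miR-181a partner strands was 4719 ± 679 TPM in cold acclimated cells and 2121 ± 151 TPM in control cells (SD, n = 3 each). Without dre-miR-181a-2-3p the other 4 summed to 564 ± 84.2 TPM in cold acclimated cells and 412 ± 112 TPM in control cells. Per 1000 reads of dre-miR-181a-5p, the 5 strands amounted to 25.9 ± 3.86 reads in cold acclimated cells and 14.7 ± 1.62 in control cells (exact permutation p = 0.1), and without dre-miR-181a-2-3p to 3.09 ± 0.449 in cold acclimated cells and 2.88 ± 0.882 in control cells (exact permutation p = 0.8).

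Finally, the partner strands were set against each other within each library, which asks whether hairpins differ in how they changed. All 15 pairs of the 6 partner strands with a mean above 10 TPM were compared by an exact two-sided permutation test on the log2 ratio. In 10 of 15 pairs the conditions did not overlap (exact permutation p = 0.1 each, adjusted p = 0.15 over the 15). This share is near the 63.1% of pairs outside miR-181, so it is not a result about these strands, and the sizes are given as a description.

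The smallest differences were found in 3 pairs. dre-miR-181a-2-3p and dre-miR-181a-3p differed by -0.07 (SE 0.23) in their log2 change, dre-miR-181b-3p and dre-miR-181c-3p by -0.02 (SE 0.18), and dre-miR-181a-5-3p and dre-miR-181a-3-3p by -0.03 (SE 0.30), and each of these pairs overlapped. By contrast, dre-miR-181a-2-3p changed by 0.99 (SE 0.27) more than dre-miR-181a-5-3p and by 0.96 (SE 0.18) more than dre-miR-181a-3-3p, with no overlap. Over dre-miR-181b-3p the difference was 0.45 (SE 0.044), with no overlap, and over dre-miR-181c-3p it was 0.44 (SE 0.18), with overlap. Unlike those above, the SEs of the pair differences came from the 3 libraries of each condition alone, without limma. The SE of 0.044 goes with control libraries that lay close together (SD 0.028 of the log2 ratio), and the exact permutation p was 0.1 there too. For the neighbours mir181a-3 and mir181c, the log2 change of dre-miR-181a-3-3p minus that of dre-miR-181c-3p was -0.53 (SE 0.22).

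Outside the family, the profiles over the 6 libraries nearest to that of dre-miR-181a-2-3p, by the root mean square difference of centred log2(TPM + 1) among 234 known miRNAs, were those of dre-miR-212-5p (0.121), dre-miR-722 (0.124) and dre-miR-27a-5p (0.147). Nearest to dre-miR-181a-5-3p were dre-miR-9-7-3p (0.157), dre-miR-222a-5p (0.160) and dre-miR-9-4-3p (0.166). Some of these were rare. In cold acclimated and control cells, dre-miR-212-5p had means of 10.3 and 3.21 TPM, dre-miR-9-7-3p 2.57 and 2.24 TPM, and dre-miR-9-4-3p 4.37 and 3.09 TPM. The added 1 TPM understates the changes of such miRNAs, so their nearness is given as a description only. Between the members, the difference was 0.150 for dre-miR-181a-5-3p and dre-miR-181b-3-3p, and 0.168 for dre-miR-181b-3p and dre-miR-181c-3p. It was 0.212 for dre-miR-181b-3-3p and dre-miR-181c-3p, and 0.224 for dre-miR-181a-2-3p and dre-miR-181a-3p. dre-miR-181b-3-3p had means of only 2.12 TPM in cold acclimated cells and 1.27 TPM in control cells, so the added 1 TPM flattens its profile. With 0.1 TPM added, its log2 fold change was 0.72, against 0.28 for dre-miR-181a-5-3p.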

How the data were processed

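From single-end reads of 50 bp, trimmed of adapters, filtered by length and quality and then aligned to the miRBase entries by Bowtie2 2.3.0, the authors deposited a single table in TPM, which is CPM of miRNA reads (1000000 in each library), for 349 known and 65 predicted miRNAs. The submitters' processing notes name danRer10 and GRCz10. The values were used as deposited. A pseudocount of 1 TPM was added before the log2 transformation, which understates the change of rare miRNAs. limma 3.58.1 (lmFit, eBayes with a trend) in R 4.3.3 was fitted to all 310 miRNAs with a mean above 1.5 TPM, and to 75 strand pairs, without pairing of replicates. The limma step was tested on simulated data, in which planted changes were either absent or larger than those of the miR-181 strands. It does not show how often changes of their size are called. Python 3.11.15 with matplotlib 3.10.9 drew the figures.

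Named were the 8 partner strands, the 4 main strands, dre-miR-181d-3p and the 3 nearest profiles of dre-miR-181a-2-3p and dre-miR-181a-5-3p. The members and lists were chosen with earlier results of these data known. The partner was the strand with the lower mean, and a strand with a copy number was paired with the shared opposite strand of its letter name. A name with no arm, such as dre-miR-212 or dre-miR-338, counted as the opposite strand of any same-named arm. Some pairs and partner strands outside miR-181 may thus not be true ones. Alternatives were pseudocounts of 0.1 and 5 TPM, a mean filter of 7.5 TPM or none, a replicate block, an adjusted p of 0.05, 3 other scalings and each library left out in turn. No libraries had identical values (0 pairs), and no column was left out.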

Additional observations from a re-analysis of the deposited data

How the results depend on the processing

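When a library was left out in turn, the count of 3 partner strands that rose lay between 1 and 3. The share of all tested miRNAs that rose then lay between 7.74% and 22.1%. The count of 1 DE-miRNA lay between 0 and 1. Without cold acclimation replicate 1 the DE-miRNA was dre-miR-181a-2-3p (log2 fold change 1.34) and no longer dre-miR-181a-3p (1.31). The count of DE-miRNAs was 0 with a pseudocount of 5 TPM, per 1000000 clean reads, under median-of-ratios scaling, and when totals excluded dre-let-7a and dre-miR-100-5p. The median log2 fold change of all tested miRNAs shifted by -0.26, -0.08 and -0.13 under these 3 scalings. Relative to that median, dre-miR-181a-2-3p changed by 1.25 as deposited and by 1.22, 1.24 and 1.23 under them. 1 strand ratio rose, against 8% of all 75 pairs, and 2 at an adjusted p under 0.05, against 21.3%. With a library left out 0 to 1 rose, against 1.37% to 8.11% of all tested pairs. The log2 fold change of dre-miR-181a-5-3p was -0.018 per 1000000 clean reads, and the strand ratio change of dre-miR-181b-3-3p was 0.23 with a pseudocount of 0.1 TPM. Ratio changes that turned with 1 library left out lay between -0.17 and 0.19 for dre-miR-181a-3-3p, -0.36 and 0.15 for dre-miR-181a-5-3p, and -0.18 and 0.14 for dre-miR-181b-3-3p. The causes were not tested. The replicate numbers were not taken to pair the samples. Same-numbered samples correlated at 0.0152, 0.142 and 0.0599 in their deviations, although each of the 6 libraries correlated best with its own number. With 3 libraries per condition, this check cannot exclude a pairing. With the replicate block 2 partner strands rose, against 12.6% of all tested miRNAs, and 1 strand ratio rose, against 9.33% of all 75 pairs. In the replicate block fit the limma adjusted p was 0.0105 for dre-miR-181b-3p and 0.0113 for dre-miR-181a-5p, so both calls were lost. By replicate number, 11 of the 15 pair ratios moved one way in every pair of libraries. The share of pairs outside miR-181 that did so was not computed, so that count is not a result about these strands. Count tests on recovered reads were planned but not run. The values are whole multiples of 1 read, and reads were used for counts, shares and their intervals, but the 84 to 98 low values per library were fewer than the number required here before a count test. dre-miR-181a-4-3p and dre-miR-181b-3-3p are limited by depth.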
